A study of Rattus norvegicus with 16 samples.

Results

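The genes described here are 10 secreted cytokines, inhibitors and receptor parts that are central to acute inflammation: the IL-6 family ligands Il6, Il11, Lif and Osm with the signalling subunit Il6st, the IL-1 genes Il1a, Il1b and Il1rn, and Tnf and Il10. The list was chosen with earlier results of these data known and matched to the count table by gene symbol. All 10 were found among the 14476 genes of the count table and kept among the 12857 genes with enough counts to test. The samples were Sprague-Dawley rat tissues, taken 4 weeks after both limbs had been cut by an osteotomy and plated, with a spacer of PMMA bone cement placed in the defect of 1 limb and the other defect left empty. The 4 groups were the induced membrane around the spacer (IM), the tissue of the empty defect that the labels call pre-fibrous non-union (PFNU), the bone next to the spacer (PMMA bone) and the bone next to the empty defect (BNED), each with 4 samples. A sample of each kind came from each of the same 4 rats, so all animals carried an injury and a plate in both limbs, the empty limb shared its circulation with a limb that held cement, and no uninjured tissue is analysed here. The labels give no age or sex.

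IL-6, IL-11, LIF and oncostatin M bind different receptors on the cell surface that share gp130, the product of Il6st, and signal through JAK kinases and STAT3. IL-1 alpha and IL-1 beta act through a common receptor, which the antagonist encoded by Il1rn blocks, and TNF acts through a pair of receptors of its own. IL-10 restrains the output of the others. In healing fractures these signals come from macrophages, neutrophils, stromal cells and bone cells, and they are known to drive both the recruitment of bone-resorbing osteoclasts and the early steps of repair.

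Of the 10 genes, 7 had an entry among the promoters that RefSeq gives for rat assembly GRCr8 (Il6, Il11, Il1a, Il1b, Il1rn, Tnf and Il6st). The counts were made on build rn5, so these positions were used for sequence alone. The 250 bases before the start of Il6, Il11 and Il6st are shown because Il6 and Il11 had the largest fold changes between the bones and Il6st had the clearest difference between defect tissue and bone. Capitals mark matches on either strand to NF-kB (GGG, any 2 bases, then TTTCC), AP-1 (TGANTCA), the cyclic AMP element CRE (TGACGTCA), C/EBP (TTNNGNAA) or STAT (TTCNNNGAA) letters. The windows are Il6 at chr4:5894576-5894825, minus strand, Il11 at chr1:78098372-78098621, plus strand and Il6st at chr2:45809982-45810231, plus strand.
Il6: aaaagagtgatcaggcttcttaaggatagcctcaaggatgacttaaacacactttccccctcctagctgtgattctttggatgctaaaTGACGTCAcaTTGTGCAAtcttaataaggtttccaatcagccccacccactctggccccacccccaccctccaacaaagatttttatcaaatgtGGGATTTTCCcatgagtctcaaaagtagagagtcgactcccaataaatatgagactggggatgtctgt
Il11: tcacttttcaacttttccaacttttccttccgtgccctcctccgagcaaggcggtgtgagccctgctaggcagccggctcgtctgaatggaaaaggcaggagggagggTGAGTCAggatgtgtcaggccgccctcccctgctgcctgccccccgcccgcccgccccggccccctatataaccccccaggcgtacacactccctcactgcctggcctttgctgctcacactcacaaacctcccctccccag
Il6st: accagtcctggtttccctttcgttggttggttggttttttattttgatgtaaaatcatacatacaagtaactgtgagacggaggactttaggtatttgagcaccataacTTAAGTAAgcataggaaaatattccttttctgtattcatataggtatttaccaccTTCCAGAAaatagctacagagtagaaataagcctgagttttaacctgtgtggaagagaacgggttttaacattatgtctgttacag

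The Il6 window held an NF-kB match 68 to 59 bases before the start, a CRE match 162 to 155 bases before it and a C/EBP match 152 to 145 bases before it. The Il11 window held an AP-1 match 142 to 136 bases before the start, and the Il6st window held 2 C/EBP matches. Among all 33469 promoter windows of the same length the NF-kB letters were found in 1.3%, AP-1 in 6.34%, CRE in 1.59%, C/EBP in 37.2% and STAT in 7.67%. Of the 7 windows of these genes, 2 held NF-kB (Il6 and Il1rn), 2 AP-1 (Il11 and Il1a), 1 CRE, 6 C/EBP and 0 STAT. A match describes letters in the window and says nothing of binding.

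Libraries held 40472228 to 76815879 counts. Levels are given as CPM, counts scaled to TMM library size, 1 count was worth 0.0117 to 0.0234 CPM, and p-values come from edgeR's quasi-likelihood F-test with Benjamini-Hochberg adjustment over all 12857 genes, a gene being called at an adjusted p under 0.05. The main model had no term for rat, so its p-values treat the libraries of a rat as independent. A fit with rat as a replicate block was run as an alternative. Osteoblast and osteocyte markers took 0.0106 to 0.273% of counts in IM, 0.0322 to 0.234% in PFNU, 0.785 to 0.918% in PMMA bone and 0.268 to 0.76% in BNED, all 8 markers being detected in every library. Skeletal muscle markers took 1.65 to 15.5% in IM, 4.71 to 11.6% in PFNU, 0.144 to 0.93% in PMMA bone and 0.285 to 3.33% in BNED. The PMMA bone of rat 1 stood apart, with 7.65% of its counts in erythroid markers against 0.428 to 1.3% in rats 2 to 4. All marker shares are percentages of total counts without the TMM factors, so they are not on the scale of CPM. Those factors ran from 0.6594 in the IM of rat 4 to 1.19 in the BNED of rat 3. In these bulk tissues fewer cells of a type and less RNA per cell cannot be told apart.

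Of the 4 IL-6 family ligands, Il6 was higher in PMMA bone than in BNED, and Il11, Lif and Osm did not pass that test. Il6, the family's founding inflammatory cytokine, had 1.75, 1.51, 0.828 and 0.158 CPM in the IM of rats 1 to 4 and 2.38, 0.351, 0.727 and 0.327 CPM in PFNU. It had 0.631, 3.24, 7.04 and 0.778 CPM in PMMA bone (27, 191, 467 and 55 counts) and 0.225, 0.258, 0.283 and 0.0875 CPM in BNED (13, 22, 14 and 4 counts). Every PMMA bone library lay above every BNED library, with rats 2 and 3 far above rats 1 and 4. Il6 rose in PMMA bone, at 2.92 ± 2.99 CPM against 0.213 ± 0.0873 CPM in BNED (SD, n = 4 each), a log2 fold change of 3.75 (SE 0.94, edgeR adjusted p = 0.0364), and within rats it was 2.8 to 24.9 times the BNED level, higher in 4 of 4. It was the only called gene among the 10, beside 4.91% of all genes called in that comparison and 3.51% called higher. Of the 10, 3 had an unadjusted p under 0.05 (Il6, Il11 and Il6st) beside 24.3% of all genes, so neither count is a result about the 10 genes as a set. The call depended on the libraries: it held without the PMMA bone of rat 1 (log2 fold change 4.08, adjusted p = 0.00801). Without PMMA bone of rats 2, 3 or 4 the edgeR adjusted p was 0.111, 0.137 and 0.0657, and without BNED of rats 1 to 4 it was 0.13, 0.0767, 0.086 and 0.0783, with log2 fold changes of 2.84 to 4.07 over those 7. Il6 was also higher in PFNU than in BNED in 4 of 4 rats, by 1.36 to 10.6 times, with no overlap of libraries. That log2 fold change of 2.12 (SE 0.90) did not pass the edgeR test (adjusted p = 0.0832), was called by DESeq2 (adjusted p = 0.034) and in a fit of those 8 libraries alone (adjusted p = 0.046), and was 1.11 without the PFNU of rat 1 (edgeR adjusted p = 0.36).

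**Figure D1:**
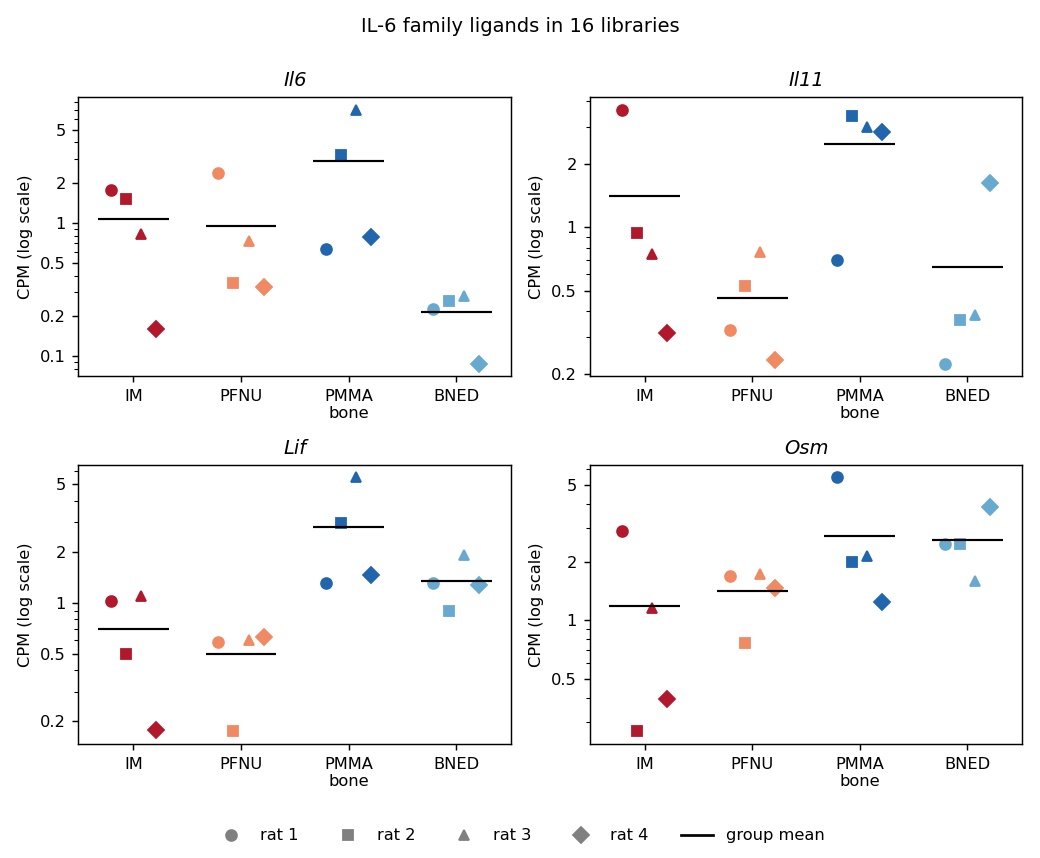
Levels of Il6, Il11, Lif and Osm in CPM on a log axis for each library; shapes are rats, bars are group means and groups run IM, PFNU, PMMA bone, BNED. All 4 PMMA bone points of Il6 (0.631 to 7.04 CPM) lie above all 4 BNED points (0.0875 to 0.283 CPM), while Lif and Osm overlap between the bones.

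Some cell type markers moved between the bones beside Il6, and others overlapped. Osteoclast markers (4 of 6 listed were in the table) took 0.746 to 1.52% of counts in PMMA bone and 0.309 to 0.556% in BNED, and fibroblast markers (7 of 7) took 6.46 to 10.5% against 2.77 to 5.86%. Neutrophil markers (10 of 10) took less beside the spacer, 0.0268 to 0.0635% against 0.133 to 0.212%, and macrophage markers (9 of 10) took 0.158 to 0.221% against 0.154 to 0.186%. None of these markers was at 0 in any bone library. Erythroid markers (7 of 8) took 0.428 to 7.65% in PMMA bone and 4.06 to 7.08% in BNED. B cell markers (4 of 5) took 0.0103 to 0.0233% in PMMA bone and 0.0461 to 0.0673% in BNED. Mast cell markers (6 of 6) took 0.0369 to 0.0654% against 0.0954 to 0.121%, and adipocyte markers (4 of 4) 0.0118 to 0.0257% against 0.0317 to 0.0499%. The part of these cells in the Il6 difference was not tested.

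Il11, a stromal cytokine of the family, had 0.701, 3.38, 3.01 and 2.84 CPM in the PMMA bone of rats 1 to 4 and 0.225, 0.364, 0.384 and 1.62 CPM in BNED. Rats 2 to 4 of PMMA bone stood above all BNED libraries, and rat 1 fell among them. The log2 fold change of 1.95 (SE 0.77) did not pass the test (edgeR adjusted p = 0.142), although each rat had more Il11 beside its spacer, by 1.76 to 9.29 times. In the defect tissues Il11 had 3.63, 0.937, 0.751 and 0.316 CPM in IM and 0.325, 0.526, 0.768 and 0.233 CPM in PFNU. The IM of rat 1 stood alone above 1 CPM, and the log2 fold change of 1.59 (SE 0.77) had an edgeR adjusted p of 0.336. Without that membrane the log2 fold change was 0.55 (adjusted p = 0.754).

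Lif, which acts on osteoblasts and marrow stroma, was lower in the membrane than in the bone next to it. It had 1.02, 0.502, 1.1 and 0.178 CPM in IM and 0.584, 0.175, 0.602 and 0.63 CPM in PFNU. It had 1.31, 2.97, 5.48 and 1.46 CPM in PMMA bone and 1.3, 0.892, 1.9 and 1.27 CPM in BNED. IM lay below PMMA bone in every library and PFNU below BNED in every library, whereas the bones overlapped. In IM Lif fell to 0.699 ± 0.436 CPM, against 2.81 ± 1.94 CPM in PMMA bone (SD, n = 4 each), a log2 fold change of -2.00 (SE 0.59, edgeR adjusted p = 0.0256). The edgeR adjusted p was 0.0548 without the IM of rat 2, 0.0582 without the IM of rat 4 and 0.102 without the PMMA bone of rat 3, and 0.0919 in a fit of those 8 libraries alone. PFNU over BNED gave -1.42 (SE 0.59, edgeR adjusted p = 0.0783), past the threshold in a fit of those 8 libraries alone (adjusted p = 0.026) and in DESeq2 (adjusted p = 0.0409). Leaving out 1 library called it in 0 of 8 fits, with edgeR adjusted p of 0.0716 to 0.188. PMMA bone over BNED gave 1.07 (SE 0.57, edgeR adjusted p = 0.263).

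Osm encodes oncostatin M, made mainly by myeloid cells. It had 2.9, 0.268, 1.16 and 0.395 CPM in IM, 1.69, 0.76, 1.74 and 1.47 CPM in PFNU, 5.46, 1.99, 2.15 and 1.25 CPM in PMMA bone and 2.47, 2.48, 1.6 and 3.83 CPM in BNED. Neighbouring groups overlapped throughout, and it passed no test, with edgeR adjusted p of 0.185 for IM over PMMA bone, 0.312 for PFNU over BNED, 0.896 for IM over PFNU and 0.963 for PMMA bone over BNED. Without the IM of rat 1, IM was lower than PMMA bone by the test (log2 fold change -2.16, edgeR adjusted p = 0.014).

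Il6st was higher in both defect tissues than in the bone of the same limb. It encodes the gp130 subunit that all of these ligands need, and had 588, 1000, 607 and 691 CPM in IM and 864, 650, 761 and 579 CPM in PFNU. It had 261, 426, 373 and 323 CPM in PMMA bone and 180, 219, 203 and 211 CPM in BNED. The defect tissues overlapped each other and lay above both bones, and PMMA bone lay above BNED with no overlap. Il6st was higher in IM than in PMMA bone (log2 fold change 1.06, SE 0.22, edgeR adjusted p = 0.00462) and higher in PFNU than in BNED (1.81, SE 0.22, edgeR adjusted p = 0.000148). Both calls held whichever library was left out, with adjusted p up to 0.0168 and 0.00097. Of the 10 genes, 3 were called between IM and PMMA bone (Il6st higher, Lif and Il1b lower) beside 22.2% of all genes, 11.3% higher and 11% lower, and 1 (Il6st, higher) between PFNU and BNED beside 30.2% of all genes, 15% higher and 15.2% lower, so neither count stands out from the background. The libraries of 2 of the 10 did not overlap between IM and PMMA bone (Lif and Il6st), beside 19.5% of all genes, and those of 4 between PFNU and BNED (Il6, Lif, Il1b and Il6st), beside 39.9%.

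Beside the spacer Il6st was at 346 ± 70.6 CPM, against 203 ± 17.2 CPM in BNED (SD, n = 4 each), 1.7-fold, and higher in 4 of 4 rats by 1.45 to 1.94 times. The edgeR adjusted p was 0.0539, just outside the threshold. It was 0.013 without the PMMA bone of rat 1 and 0.0262 in a fit of those 8 libraries alone, and DESeq2 gave 0.0125. Of the 8 fits that left out 1 library only that 1 called it, and the edgeR adjusted p reached 0.19. The fit with rat as a replicate block did not call it either. Il6 and Il6st were the 2 of 10 genes whose libraries did not overlap between the bones, beside 19.1% of all genes. Endothelial markers (6 of 6, none at 0) took 0.0469 to 0.0877% of counts in PMMA bone and 0.0405 to 0.0504% in BNED, and 0.073 to 0.124% in IM and 0.0702 to 0.11% in PFNU. Since these shares lack the TMM scaling of the Il6st levels, their overlap between groups cannot be set against that of Il6st. The part of that difference in Il6st was not tested.

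**Figure D2:**
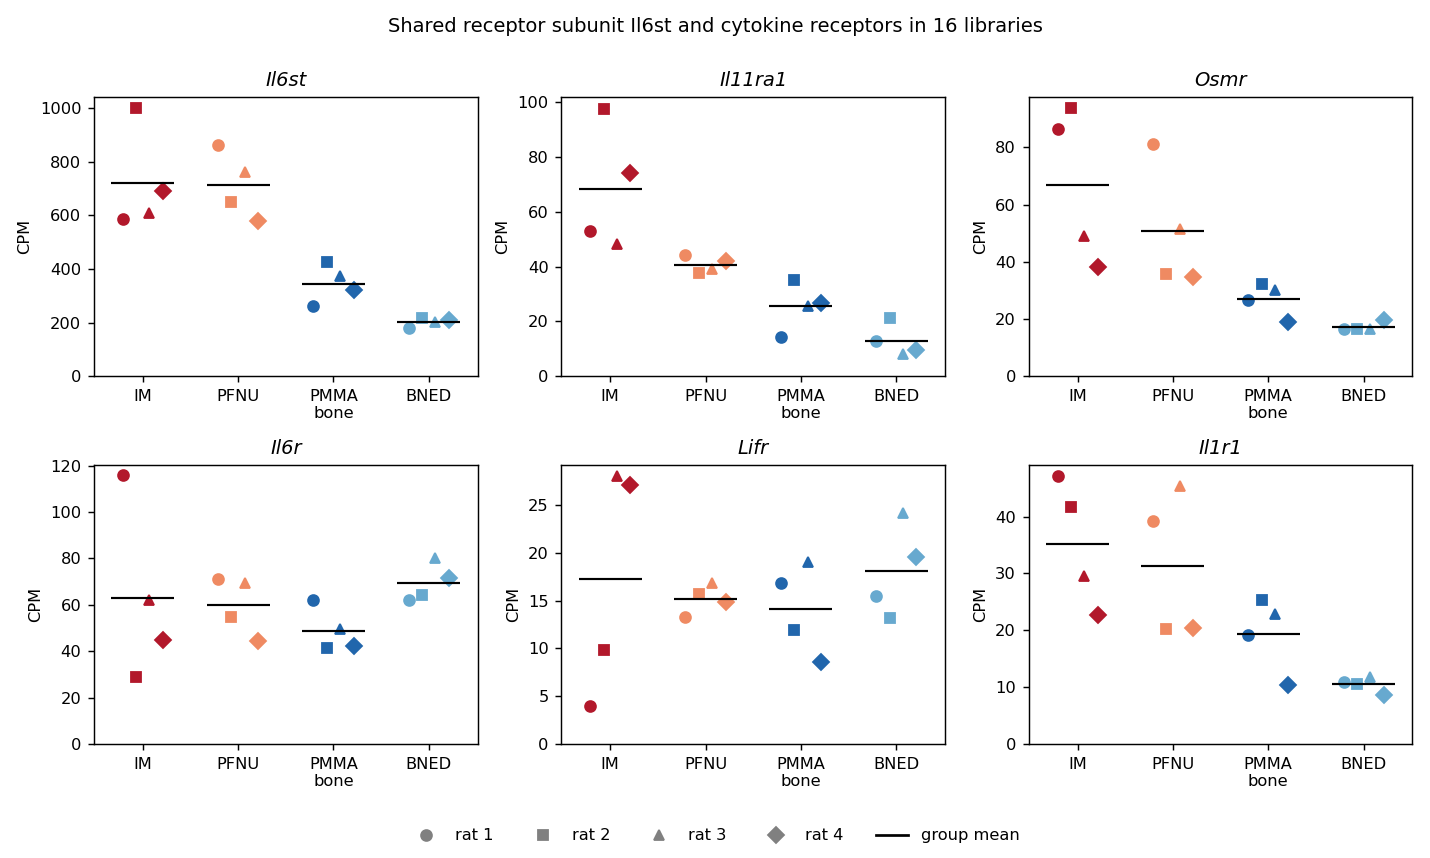
Levels of Il6st, Il11ra1, Osmr, Il6r, Lifr and Il1r1 in CPM on linear axes from 0 for each library; shapes are rats and bars are group means. Il6st steps down from the defect tissues (579 to 1000 CPM) to PMMA bone (261 to 426 CPM) and BNED (180 to 219 CPM), Il11ra1 and Osmr are lower in bone, and Il6r and Lifr overlap between all groups compared except Il6r between the bones.

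Of the receptors that work with gp130, Il11ra1 and Osmr were higher in defect tissue than in bone, and Il6r and Lifr passed no test. Il11ra1, the receptor of IL-11, had 53.1, 97.4, 48.2 and 74.3 CPM in IM, 44.1, 37.6, 39.1 and 41.9 CPM in PFNU, 14.3, 35.1, 25.7 and 26.9 CPM in PMMA bone and 12.9, 21.3, 8.27 and 9.69 CPM in BNED. It was higher in IM than in PMMA bone (log2 fold change 1.42, SE 0.31, edgeR adjusted p = 0.00673) and higher in PFNU than in BNED (1.64, SE 0.32, edgeR adjusted p = 0.00172). Osmr, the oncostatin M receptor subunit, was at 66.8 ± 27.3 CPM in IM against 26.9 ± 5.74 CPM in PMMA bone (1.31, SE 0.31, edgeR adjusted p = 0.00907) and at 50.8 ± 21.7 CPM in PFNU against 17.3 ± 1.6 CPM in BNED (1.56, SE 0.31, edgeR adjusted p = 0.00209; SD, n = 4 each). All 4 of these calls held under every alternative run. Il6r, the receptor of IL-6, and Lifr, the receptor subunit that LIF shares with other ligands of the family, had edgeR adjusted p of 0.421 and 0.669 for IM over PMMA bone and 0.625 and 0.691 for PFNU over BNED. Between the bones no gp130 receptor of the list of 6 was called, with Il11ra1 at 0.97 (SE 0.31, edgeR adjusted p = 0.0826, called by DESeq2) and Il6r at -0.51 (SE 0.32, adjusted p = 0.34).

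Of the IL-1 genes, Il1b was lower in the membrane than in PMMA bone, and Il1a and Il1rn passed no edgeR test. Il1a, the cell-bound alarm form of IL-1, had 0.327, 2.68, 5 and 0.113 CPM in PMMA bone (14, 158, 332 and 8 counts) and 0.657, 0.481, 0.0809 and 1.36 CPM in BNED (38, 41, 4 and 62 counts). It had 0.288, 0.167, 0.52 and 0.0987 CPM in IM and 0.606, 0.156, 0.125 and 0 CPM in PFNU, where 3 counts in the library of rat 4 would have been 0.07 CPM. The PMMA bone of rats 2 and 3 stood above all other libraries, and rats 1 and 4 lay within the BNED range. No comparison of Il1a passed the edgeR test, the lowest adjusted p being 0.078 for IM over PMMA bone (log2 fold change -2.91, SE 1.14), which DESeq2 called (adjusted p = 0.0229). Leaving out 1 library called that difference in 0 of 8 fits, with edgeR adjusted p of 0.0536 to 0.255.

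Il1b, the secreted form made chiefly by myeloid cells, had 5.22, 12.9, 18.8 and 4.15 CPM in IM and 12.4, 6.52, 12.7 and 9.01 CPM in PFNU. It had 25.5, 36.2, 86.1 and 11.3 CPM in PMMA bone and 16.5, 19.9, 31.9 and 34.7 CPM in BNED. PFNU lay below BNED in all libraries, and IM overlapped PMMA bone through the PMMA bone of rat 4, the lowest of its group. Il1b fell in IM to 10.3 ± 6.89 CPM, against 39.8 ± 32.5 CPM in PMMA bone (SD, n = 4 each), a log2 fold change of -1.96 (SE 0.56, edgeR adjusted p = 0.0234), and each rat had 0.205 to 0.366 of its PMMA bone level in IM. The edgeR adjusted p was 0.0645 without the IM of rat 4, 0.103 without the PMMA bone of rat 3, where the log2 fold change was -1.25, and 0.0974 in a fit of those 8 libraries alone. PFNU over BNED gave -1.34 (SE 0.55, edgeR adjusted p = 0.0772). That difference was called by DESeq2, and its edgeR adjusted p was 0.047 with rat as a replicate block. Leaving out 1 library called it in 0 of 8 fits, with edgeR adjusted p of 0.0802 to 0.179.

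Neutrophil markers were lower in defect tissue beside Il1b, and so were osteoclast, mast cell, B cell and erythroid markers. Neutrophil markers took 0.0018 to 0.00466% of counts in IM and 0.0268 to 0.0635% in PMMA bone, and 0.0048 to 0.0112% in PFNU and 0.133 to 0.212% in BNED. Between the bones these markers were lower beside the spacer, while mean Il1b was 39.8 CPM in PMMA bone and 25.8 CPM in BNED, a difference not called. In IM the granule genes Camp and Elane were the neutrophil markers with a library at 0. Macrophage markers took 0.128 to 0.335% in IM against 0.158 to 0.221% in PMMA bone, and 0.0694 to 0.199% in PFNU against 0.154 to 0.186% in BNED. The part of these cells in the Il1b difference was not tested.

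Il1rn, the receptor antagonist, had 126, 90.5, 56.9 and 22.7 CPM in IM, 101, 39.1, 186 and 40.1 CPM in PFNU, 57.4, 68.9, 122 and 22 CPM in PMMA bone and 20.5, 27.2, 38.7 and 62.9 CPM in BNED. All neighbouring groups overlapped and none of its tests passed, with log2 fold changes of 0.14 for IM over PMMA bone (SE 0.60, edgeR adjusted p = 0.89) and 1.29 for PFNU over BNED (SE 0.61, edgeR adjusted p = 0.119). The ratio of Il1rn to Il1b counts within a library, which does not depend on library scaling and was chosen after the values were seen, was 24.2, 7.04, 3.03 and 5.47 in IM and 8.12, 6, 14.6 and 4.45 in PFNU. It was 2.25, 1.9, 1.41 and 1.94 in PMMA bone and 1.24, 1.37, 1.21 and 1.81 in BNED. Every defect tissue library lay above every bone library. The counts are not corrected for transcript length, so only the change of the ratio between samples is read. On the log2 scale the mean was higher by 1.98 in IM than in PMMA bone and by 2.43 in PFNU than in BNED, each in 4 of 4 rats, and by 0.41 in PMMA bone than in BNED, and it differed by -0.04 for IM over PFNU. No test is given, since the ratio was chosen on these values and the libraries are paired by rat.

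**Figure D3:**
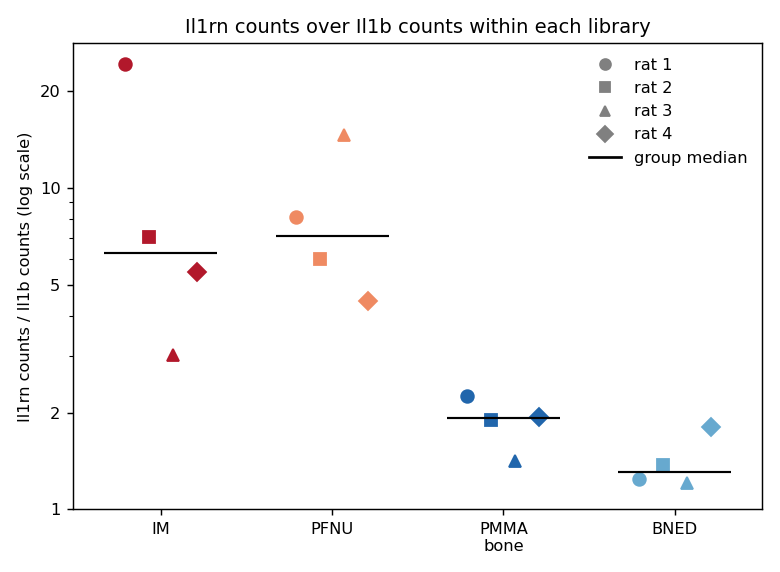
Il1rn counts divided by Il1b counts in each library on a log axis; shapes are rats and bars are group medians. All 8 defect tissue libraries lie between 3.03 and 24.2 and all 8 bone libraries between 1.21 and 2.25.

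Tnf and Il10 passed no test, and their libraries overlapped in each of the 4 comparisons of groups. Tnf, a cytokine of activated macrophages, had 2.57, 1.29, 3.27 and 0.474 CPM in IM, 3.27, 0.857, 1.43 and 1.12 CPM in PFNU, 1.24, 2.26, 5.44 and 1.23 CPM in PMMA bone and 0.536, 1.3, 2.49 and 1.05 CPM in BNED. Each rat had more Tnf in its PMMA bone than in its BNED, by 1.17 to 2.31 times, but the spread between rats was as wide and the log2 fold change of 0.92 (SE 0.65) had an edgeR adjusted p of 0.406. Il10 was near the detection limit, with 22, 44, 31 and 32 counts in IM, 48, 19, 2 and 1 in PFNU, 18, 7, 47 and 0 in PMMA bone and 9, 14, 5 and 17 in BNED. In the PMMA bone of rat 4, 3 counts would have been 0.0425 CPM. IM had 0.422 to 0.736 CPM and overlapped PFNU, and edgeR adjusted p for Il10 ran from 0.528 to 0.818 over the 4 comparisons of groups.

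**Figure D4:**
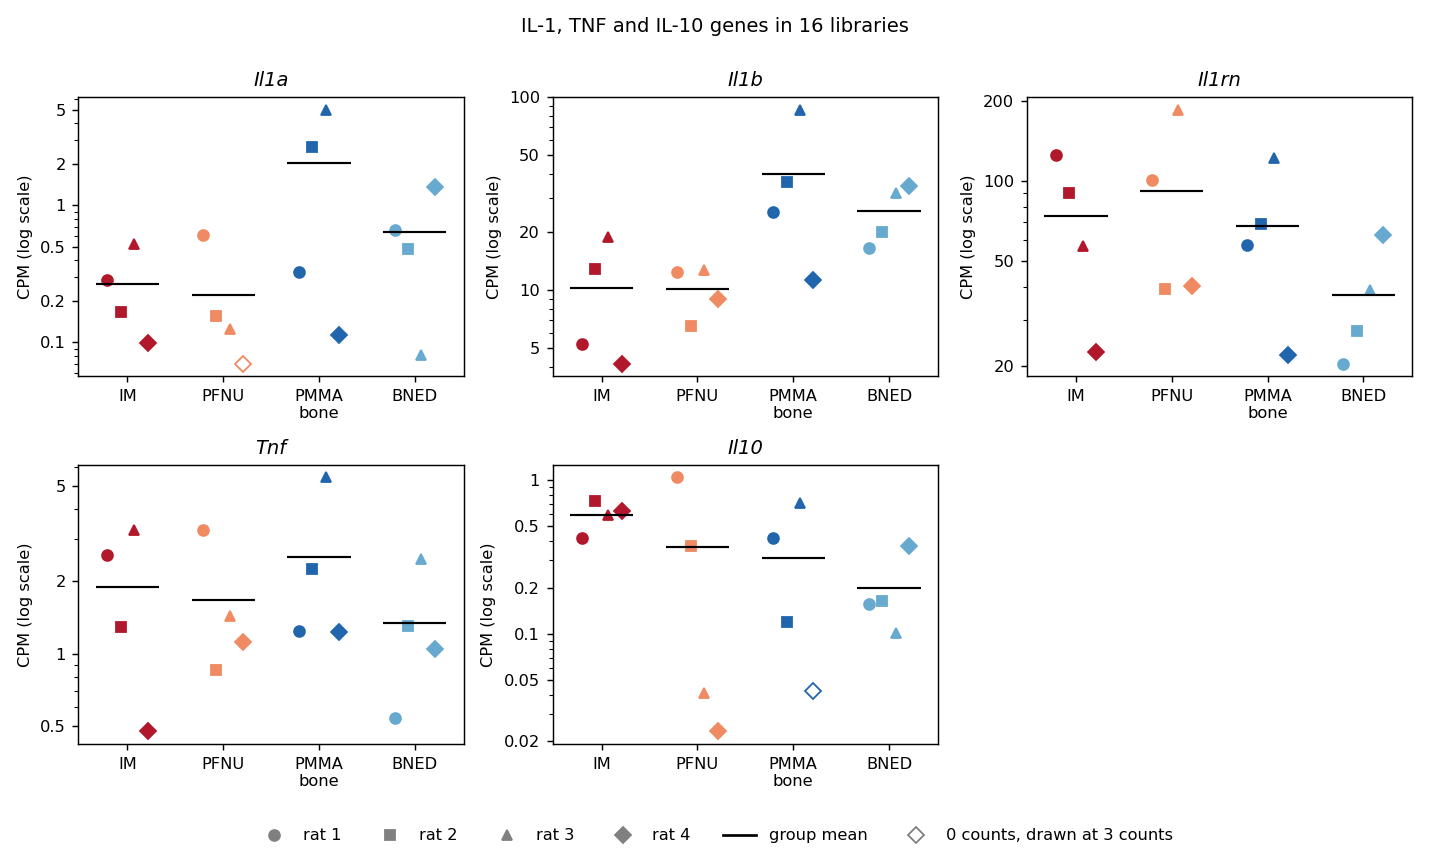
Levels of Il1a, Il1b, Il1rn, Tnf and Il10 in CPM on log axes for each library; shapes are rats, bars are group means, and open symbols mark libraries with 0 counts drawn at the value of 3 counts. Il1b is lower in IM and PFNU (4.15 to 18.8 CPM) than in most bone libraries (11.3 to 86.1 CPM), whereas Il1rn, Tnf and Il10 overlap in IM against PFNU, PMMA bone against BNED, IM against PMMA bone and PFNU against BNED.

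The spacer was compared with the empty defect in the defect tissue itself, and none of the 10 genes was called between IM and PFNU, beside 0.863% of all genes. The count of unadjusted p under 0.05 was 0 for the 10 genes, DESeq2 called 0, and no gene's libraries separated, beside 7.26% of all genes. The log2 fold changes ran from -0.30 for Il1rn to 1.59 for Il11 with a median of 0.18, beside 0.01 over all genes tested. The standard errors were 0.55 to 1.14 for the 9 genes other than Il6st, as large as many of these differences. Il6st had 722 ± 192 CPM in IM and 713 ± 126 CPM in PFNU (SD, n = 4 each) and a log2 fold change of 0.02 (SE 0.22, edgeR adjusted p = 0.987).

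Between the bones all 10 genes had positive log2 fold changes, with a median of 0.89 beside -0.01 over all genes tested. With rat as a replicate block Osm was at -0.22, and leaving out 1 library turned Osm, Il1b or Il10 negative, so the shared direction is not firm for those 3. Nor did all rats share it for Il1a, higher in PMMA bone in 2 of 4 rats, or for Il1rn, higher in 3 of 4. The 10 signs come from the same libraries and are not independent. Whether the spacer's difference was larger in bone than in defect tissue was tested by the interaction, and edgeR called 0 of the 10 genes and 0% of all genes, with 2 of the 10 at an unadjusted p under 0.05 beside 8.94% of all genes, and DESeq2 called 0 of the 10. The 2 were Il6, at -3.58 (SE 1.23, edgeR adjusted p = 0.42), and Il6st, at -0.75 (SE 0.30, edgeR adjusted p = 0.501), where negative values mean a larger difference in bone.

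**Figure D5:**
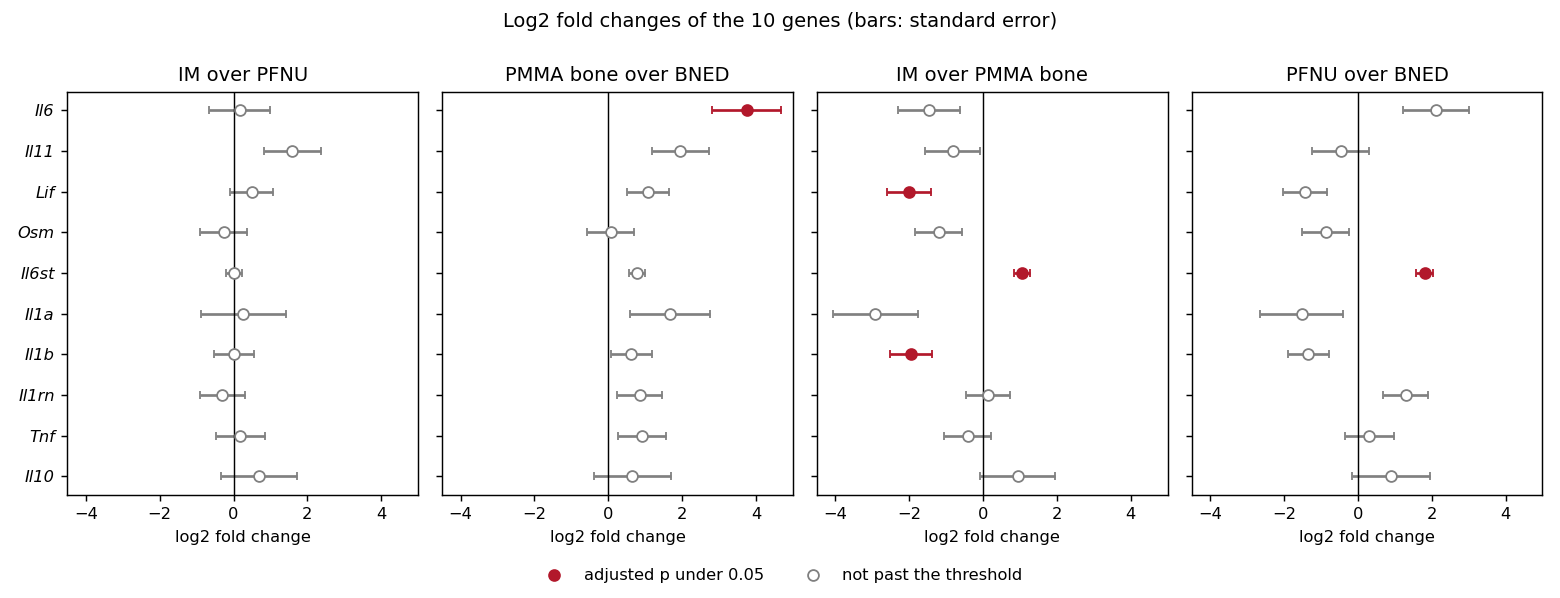
Log2 fold changes of the 10 genes in 4 comparisons, with standard errors; filled red points passed an edgeR adjusted p of 0.05. Il6 is the filled point for PMMA bone over BNED (3.75), Il6st is filled in both comparisons of defect tissue with bone (1.06 and 1.81), and Lif (-2.00) and Il1b (-1.96) are filled for IM over PMMA bone.

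Several of the 10 genes were highest or lowest in the same library. In PMMA bone rat 3 was the highest of the 4 rats for 7 of the 10 genes (Il6, Lif, Il1a, Il1b, Il1rn, Tnf and Il10). In IM rat 4 was the lowest for 7 (Il6, Il11, Lif, Il1a, Il1b, Il1rn and Tnf), and its muscle markers took 15.5% of counts and its macrophage markers 0.128%, the highest and the lowest of the 4 membranes. The IM of rat 3 went the other way. Its muscle markers took 12.4% of counts, yet it was the highest membrane for 4 genes (Lif, Il1a, Il1b and Tnf) and the lowest for 0. In PFNU rats 2 and 4 were the lowest for 5 genes each, with muscle markers at 11.1 and 11.6% of counts against 6.32 and 4.71% in rats 1 and 3. The PMMA bone of rat 3 had the highest shares of its group for osteoclast (1.52%) and macrophage (0.221%) markers. The part of these tissue shares in the spread between rats was not tested.

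The likeness of other genes was measured as Pearson's r of log2 CPM over the 16 libraries, among 11500 genes of at least 1 CPM, as a description of libraries that share rats, tissues and cell makeup. Il6st was most like Pecam1, the adhesion molecule of endothelium (0.978), Mecom (0.976) and the ubiquitin ligase Nedd4 (0.975). Pecam1 had 255 to 512 CPM in IM, 266 to 369 CPM in PFNU, 123 to 232 CPM in PMMA bone and 101 to 124 CPM in BNED, the same order of groups as Il6st. Il11 was most like Ckap4 (0.935) and the cartilage proteoglycan gene Acan (0.927). Lif was most like Pstpip1 (0.951), Jdp2 (0.937) and the lysosomal protease gene Ctsz (0.936), and Il1b like the chemokine receptor gene Ccr1 (0.917), Cdh17 (0.897) and Cd84 (0.897).

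For Osm the nearest were March8 (0.937), Slc7a1 (0.903) and Srd5a3 (0.899), for Il1rn Tmem26 (0.879), Alcam (0.879) and Rassf4 (0.864), and for Tnf Bcl3 (0.847), Ptpre (0.832) and Fosl2 (0.821). The nearest were Nradd (0.858), Inha (0.843) and Dhx57 (0.836) for Il6, Niacr1 (0.839), Cxcl1 (0.726) and Ctsz (0.722) for Il1a, and Clec2g (0.712), Clcn5 (0.711) and RT1-CE5 (0.707) for Il10.

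The wider pathway was read from 8 lists with 74 entries, of which 66 were tested. Between IM and PFNU 1 was called, higher: Tnfaip6, a hyaluronan-binding protein induced by TNF and IL-1, at 95.5, 73.1, 20.5 and 11.5 CPM in IM and 13.3, 9.11, 8.33 and 6.63 CPM in PFNU. Its log2 fold change was 2.42 (SE 0.54, edgeR adjusted p = 0.0482). The membranes of rats 1 and 2 were far above the rest, and the membrane of rat 4 lay within the PFNU range. Its call was lost under 10 of 13 alternatives, with an adjusted p of 0.104 with rat as a replicate block and up to 0.173 when a library was left out. Over these 66 genes 13 had an unadjusted p under 0.05, beside 15.5% of all genes, and DESeq2 called 3 (Tnfaip6, Cntf and Il27ra).

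Between PMMA bone and BNED 1 of the 66 was called: Tnfsf12, which encodes the TNF relative TWEAK, at 29.4, 44.2, 40.5 and 43.8 CPM in PMMA bone and 24.5, 24, 25 and 26.1 CPM in BNED (log2 fold change 0.66, SE 0.16, edgeR adjusted p = 0.0345). All PMMA bone libraries were above all BNED libraries. The call was lost with rat as a replicate block (adjusted p = 0.0539) and without any single library other than the PMMA bone of rat 1 (adjusted p up to 0.129). Socs3, the feedback inhibitor induced by gp130 signals, was not called between the bones, and its libraries overlapped. It was at 17, 20.4, 30.6 and 11.7 CPM in PMMA bone and 12.4, 10.4, 8.51 and 12.5 CPM in BNED (0.87, SE 0.39, edgeR adjusted p = 0.191). Of the 14 cytokine-induced targets tested, 0 were called there, with a median log2 fold change of 0.48 beside -0.01 over all genes; DESeq2 called Tnfaip6 and Timp1 among them. Between IM and PMMA bone 12 of the 66 pathway genes were higher and 4 lower, and between PFNU and BNED 10 were higher and 8 lower, so 16 and 18 of 66 beside 22.2% and 30.2% of all genes.

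Among other gp130 ligands Ctf1, cardiotrophin, was at 11 ± 3.41 CPM in IM against 4.74 ± 1.46 CPM in PMMA bone (edgeR adjusted p = 0.0166, and 0.0531 without the IM of rat 4) and at 12.6 ± 3.35 CPM in PFNU against 4.26 ± 1.6 CPM in BNED (edgeR adjusted p = 0.00267; SD, n = 4 each). Cntf, ciliary neurotrophic factor, was lower in IM than in PMMA bone (-0.84, SE 0.21, edgeR adjusted p = 0.012). Ebi3, a subunit shared by IL-27 and IL-35, was lower in PFNU than in BNED (-1.13, SE 0.28, edgeR adjusted p = 0.00844), and the IL-27 receptor gene Il27ra was lower in both (-1.62, edgeR adjusted p = 0.0177, and -1.25, adjusted p = 0.0378), with adjusted p up to 0.051 and 0.107 when a library was left out. Of the JAK and STAT genes, Jak1 was higher in IM than in PMMA bone (0.43, edgeR adjusted p = 0.042, up to 0.108 when a library was left out), and Stat3 was higher in PFNU than in BNED (0.80, adjusted p = 0.0108).

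In the IL-1 family Il33, an alarm cytokine stored in the nuclei of stromal and endothelial cells, had the largest log2 fold changes of its list of 9 tested genes for IM over PMMA bone and for PFNU over BNED. It had 135, 358, 153 and 155 CPM in IM, 233, 155, 168 and 105 CPM in PFNU, 24.5, 46, 24.6 and 37.9 CPM in PMMA bone and 17.6, 25, 13.8 and 28.1 CPM in BNED. All defect tissue libraries lay above all bone libraries, with log2 fold changes of 2.59 for IM over PMMA bone (SE 0.37, edgeR adjusted p = 0.000524) and 2.97 for PFNU over BNED (SE 0.37, edgeR adjusted p = 0.000157). Its receptor gene Il1rl1 was higher in IM than in PMMA bone (2.17, SE 0.67, edgeR adjusted p = 0.0311) through the membranes of rats 1 and 2, at 208 and 108 CPM, against 27.5 and 9.95 CPM in rats 3 and 4 and 14.5 to 24.1 CPM in PMMA bone, and with rat as a replicate block the adjusted p was 0.0687. The signalling receptor gene Il1r1 was higher in PFNU than in BNED (1.58, SE 0.33, edgeR adjusted p = 0.00258) and the decoy receptor gene Il1r2 lower (-1.73, SE 0.56, edgeR adjusted p = 0.0303, up to 0.0731 when a library was left out). Il18bp, which neutralises IL-18, was also higher in PFNU (1.82, SE 0.36, edgeR adjusted p = 0.00202). In IM over PMMA bone Il1r1 and the accessory subunit gene Il1rap had edgeR adjusted p of 0.0648 and 0.0763.

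Of the signal relay and target genes, Irak3, a brake on IL-1 signals, was higher in IM than in PMMA bone (0.56, edgeR adjusted p = 0.0394, up to 0.107 when a library was left out), and the adaptor gene Traf6 was lower in PFNU than in BNED (-0.56, edgeR adjusted p = 0.0415, up to 0.116, and 0.0536 with rat as a replicate block). Tnfsf12 was higher in IM than in PMMA bone (0.69, edgeR adjusted p = 0.00907) and in PFNU than in BNED (0.86, adjusted p = 0.00152), and lymphotoxin beta, Ltb, was lower in PFNU than in BNED (-1.497, adjusted p = 0.00482). The TNF receptor genes Tnfrsf1a and Tnfrsf1b had edgeR adjusted p of 0.479 and 0.709 for IM over PMMA bone and 0.068 and 0.981 for PFNU over BNED, and the IL-10 receptor genes Il10ra and Il10rb 0.639 and 0.512 for the second. Tnfaip6 (2.35, adjusted p = 0.00807) and Cebpd (1.08, adjusted p = 0.0286, up to 0.0708 when a library was left out) were higher in IM than in PMMA bone by edgeR. Haptoglobin, Hp, was lower in IM than in PMMA bone (-1.66, edgeR adjusted p = 0.00303) and in PFNU than in BNED (-1.60, adjusted p = 0.00182). Lcn2, the iron-scavenging lipocalin of neutrophil granules (-2.02, edgeR adjusted p = 0.00138), and Vcam1, an adhesion molecule (-1.65, adjusted p = 0.00641), were lower in PFNU than in BNED. In a fit of the 8 compared libraries alone the IM over PMMA bone calls of Ctf1, Cntf, Il27ra, Jak1, Il1rl1, Irak3, Tnfsf12 and Tnfaip6 were lost. Of the 36 pathway calls over all comparisons, 18 held under every alternative. Neutrophil and muscle marker shares, given above, moved between defect tissue and bone beside all of these, and their part was not tested.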

How the data were processed

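RNA-seq counts of 16 libraries were analysed, 4 for each of 4 tissues from the same 4 rats. The authors deposited raw counts, 1 whole number for each gene symbol and library, not normalised. The submitters' processing notes list build rn5 and the programs Bowtie2 2.2.1, TopHat2 2.0.13, FastQC 0.11.3 and DESeq2. The counting program, annotation and strand setting are not given in the sources used here. Per the labels' protocols the libraries were stranded and poly-A selected. With that setting unknown, reads of a gene and of one that overlaps it or lies antisense may be mixed.

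Counts were fitted with edgeR 4.0.16 in R 4.3.3 (TMM, filterByExpr, quasi-likelihood F-test) in 1 model of group means over the 16 libraries, and a gene was called at a Benjamini-Hochberg adjusted p under 0.05. SE is the log2 fold change over the square root of F. DESeq2 1.42.0, RLE size factors, no filter, fits of the compared groups alone, a replicate block for rat and leaving out each library were the alternatives. Likeness used log2 CPM with a prior count of 2. The members and lists were chosen with earlier results of these data known. The text names all 10 members, 11 receptors, up to 3 called genes of each pathway list per comparison, and the 3 genes most like each member. Socs3, Timp1 and the Il1rn to Il1b ratio were added after their values were seen. Some genes that meet this rule are not reported here, and counts over lists and over all genes include them. The fit was tested on simulated data with 50 genes changed at each fold. For IM over PFNU it recovered 34% of 2-fold and 72% of 4-fold changes, with 5 false calls of 154. For PMMA bone over BNED it recovered 16% and 76%, with 2 false calls of 139. Changes of 2-fold were therefore mostly missed. The changed genes were drawn at random from all genes tested, so these rates may not hold for the cytokines with low counts.

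Depth was 40472228 to 76815879 counts. The counts are of PCR-amplified reads without molecular identifiers, so a limit set by 3 counts covers only the error of counting. Precision was limited by differences among the libraries of a group. Each library of a group came from a different rat, so differences of rat and of tissue sample cannot be told apart there. No pair of libraries of a group agreed within sampling noise (lowest chi-square per degree of freedom 75.6). Rats pair the samples, since the labels give the same rat numbers in each tissue and the design is bilateral; deviations from group means of the same rat's libraries correlated at -0.345 to 0.496.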

Additional observations from a re-analysis of the deposited data

Results flagged for a closer look

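Dixon's gap test at its 95% critical value, applied to 164 groups of 4 libraries over 40 genes and the Il1rn to Il1b ratio, marked 11 libraries as far from the other 3 of their group. Chance marks about 1 in 20 groups, so 11 of 164 is near that rate. Among the cytokines Il11 was high in the BNED of rat 4, at 1.62 CPM with the next at 0.384 CPM, and Lif was low in the PFNU of rat 2, at 0.175 CPM with the next at 0.584 CPM. In BNED, Osmr (19.7 CPM) and Il1rap (7.63 CPM) were high in rat 4 and Il27ra (5.8 CPM) in rat 3. In PFNU, Stat3 (327 CPM) and Il1r2 (2.62 CPM) were high in rat 1 and Hp (32.6 CPM) in rat 3. In IM, Il33 (358 CPM), Vcam1 (124 CPM) and Hp (25.9 CPM) were high in rat 2.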

How the results depend on the processing

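With rat as a replicate block Il1b passed the test for PFNU over BNED (edgeR adjusted p = 0.047), and the block changed no other call of the 10 genes. All genes called between IM and PFNU numbered 111, against 572 by DESeq2, 47 with the replicate block and 0 in a fit of the compared groups alone. Between PMMA bone and BNED they numbered 631, against 1546 by DESeq2 and 1767 in the compared groups alone. For the interaction DESeq2 called 136, and between IM and PMMA bone the compared groups alone gave 908 in place of 2860. Of the 10 cytokine genes, DESeq2 and the compared groups alone each called 2 between PMMA bone and BNED and 4 between PFNU and BNED, the block called 2 between PFNU and BNED, and the compared groups alone called 1 between IM and PMMA bone. Between IM and PFNU Il1b turned to -0.0044 with RLE size factors, -0.0048 by DESeq2 and -0.21 with the block, Tnf to -0.029 and Il6st to -0.016 with the block. Osm turned to -0.22 between the bones with the block.

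Leaving out 1 library gave 11 to 244 genes called between IM and PFNU, 0 to 2578 between PMMA bone and BNED, 0 to 199 for the interaction and 1818 to 4047 between IM and PMMA bone. Of the 10 genes it called 0 to 2 between the bones and 1 to 4 between IM and PMMA bone. The log2 fold changes that changed sign ranged, for IM over PFNU, from -0.14 to 1.18 for Il6, -1.24 to 0.069 for Osm, -0.26 to 1.47 for Il1a, -0.46 to 0.29 for Il1b, -0.66 to 0.30 for Il1rn, -0.21 to 0.74 for Tnf and -0.18 to 0.13 for Il6st. For PMMA bone over BNED they ranged from -0.53 to 0.31 for Osm, -0.082 to 0.94 for Il1b and -0.19 to 1.12 for Il10. For the interaction they ranged from -1.25 to 0.27 for Osm, -1.08 to 0.094 for Il1b and -0.43 to 1.35 for Il10. For IM over PMMA bone they ranged from -0.22 to 0.59 for Il1rn and -0.82 to 0.27 for Tnf, and for PFNU over BNED from -0.82 to 0.51 for Il11, -0.24 to 0.79 for Tnf and -0.41 to 1.37 for Il10. The Il1rn to Il1b log2 ratio, whose alternatives were chosen after seeing the data, ranged from -0.62 to 0.38 for IM over PFNU. None of the changes of sign was in a gene called in that comparison, and the cause was not tested. Depth limits Il10, Il1a, Il6 and Lif, each of which had libraries of under 10 counts; for Lif these were the IM of rat 4 and the PFNU of rat 2, with 9 counts each.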
